A study of Saccharomyces cerevisiae with 6 samples.

Results

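The genes described are 8 budding yeast genes that carry an intron and encode parts of the transcription machinery or proteins that act on chromatin: IWR1, KIN28, SRB2, TFC3, TAF14, HPC2, ARP9 and GCR1. They were chosen by name from the 312 intron genes of the deposited read class tables, with earlier results of these data known. All 8 were found in every library. The study asked how the elongation rate of RNA polymerase II (RNAPII) affects pre-mRNA splicing and its fidelity in Saccharomyces cerevisiae. Total RNA, depleted of ribosomal RNA, was sequenced with strand-specific paired-end reads from log phase cultures in rich YPDA medium.

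The 6 libraries were 2 biological replicates of each of 3 strains. The WT strain (CKY690) carried RPB1, the gene for the largest subunit of RNAPII, on a centromeric LEU2 plasmid. The fast strain (CKY772) carried rpb1-G1097D and the slow strain (CKY691) rpb1-H1085Y in its place, point mutants that elongate faster and slower than WT. All 3 strains were MATa with a deletion of chromosomal rpb1, a TAP tag on RPB3, auxotrophic alleles of ura3, his3, leu2, trp1, met15 and lys2 and an allele of gal10. All 3 also lacked UPF1, which is needed for nonsense-mediated decay (NMD), the pathway that degrades mRNAs with a premature stop codon. Each allele was represented by 1 strain, and no strain with UPF1 was compared, so every value below is from cells without NMD.

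In yeast splicing the spliceosome recognises the 5′ splice site (5′SS, usually GTATGT), the branch point (BP, usually TACTAAC) and the first suitable 3′ splice site (3′SS) downstream of it, a CAG, TAG or AAG. Most yeast introns lie near the start of the gene, and their removal can begin while RNAPII is still transcribing the second exon. Pre-mRNA that stays unspliced, or that is spliced at another site, often gains a stop codon and is then a target of NMD.

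The 8 genes have different roles. IWR1, KIN28, SRB2 and TAF14 encode factors of RNAPII transcription: Iwr1 binds RNAPII and directs its import into the nucleus, Kin28 is the TFIIH kinase that phosphorylates the carboxy-terminal domain of RNAPII, Srb2 is a subunit of the Mediator head, and Taf14 is a YEATS domain protein shared by TFIID, TFIIF and several chromatin complexes. Tfc3 is a subunit of TFIIIC, which recruits RNA polymerase III to tRNA genes. Hpc2 belongs to the HIR complex, a histone chaperone that assembles nucleosomes independently of replication, and Arp9 is an actin-related subunit of the RSC and SWI/SNF chromatin remodellers. Gcr1 is the activator of glycolytic genes.

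The introns are shown here because every measurement rests on their splice sites (sequences from the RefSeq R64 assembly, 5′ to 3′, on the strand of the gene). Capitals mark the first 6 bases, the heptamer closest to TACTAAC and the last 3 bases of the annotated intron. In IWR1, TFC3, TAF14, HPC2 and ARP9 the sequence runs on into exon 2, where further capitals mark the end of each unannotated 3′SS that passed the read minimum.
IWR1 (minus strand, chrIV:254937-255044): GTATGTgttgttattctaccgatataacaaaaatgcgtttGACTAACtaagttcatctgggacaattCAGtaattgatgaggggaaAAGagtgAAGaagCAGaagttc
KIN28 (plus strand, chrIV:267726-267806): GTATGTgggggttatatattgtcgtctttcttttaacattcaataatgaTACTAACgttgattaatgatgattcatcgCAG
SRB2 (minus strand, chrVIII:189750-189850): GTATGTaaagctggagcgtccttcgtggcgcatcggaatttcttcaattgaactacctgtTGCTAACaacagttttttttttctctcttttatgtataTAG
TFC3 (minus strand, chrI:150984-151096): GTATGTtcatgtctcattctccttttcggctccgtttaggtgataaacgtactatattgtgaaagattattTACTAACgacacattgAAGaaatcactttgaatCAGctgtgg
TAF14 (plus strand, chrXVI:305307-305428): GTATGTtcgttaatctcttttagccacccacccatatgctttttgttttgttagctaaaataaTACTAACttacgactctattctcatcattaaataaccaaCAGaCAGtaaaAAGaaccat
HPC2 (plus strand, chrII:653369-653564): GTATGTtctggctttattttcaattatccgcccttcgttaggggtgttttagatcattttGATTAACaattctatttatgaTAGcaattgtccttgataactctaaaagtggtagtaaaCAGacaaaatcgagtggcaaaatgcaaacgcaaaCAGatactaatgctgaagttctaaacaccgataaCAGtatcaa
ARP9 (plus strand, chrXIII:337818-337923): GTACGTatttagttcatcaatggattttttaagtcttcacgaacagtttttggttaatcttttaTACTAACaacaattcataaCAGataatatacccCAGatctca

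Of GCR1, whose intron is 751 nt long, only the start and the end are shown. Capitals in the start mark the first 6 bases after each of 3 overlapping or nearby 5′ ends, and capitals in the end mark a further 5′ end, the TACTAAC heptamer, the 3′ end that was used and the annotated TAG.
GCR1 start of the intron (plus strand, chrXVI:412254-412329): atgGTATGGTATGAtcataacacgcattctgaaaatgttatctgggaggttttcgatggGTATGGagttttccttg
GCR1 end of the intron (plus strand, chrXVI:412879-413018): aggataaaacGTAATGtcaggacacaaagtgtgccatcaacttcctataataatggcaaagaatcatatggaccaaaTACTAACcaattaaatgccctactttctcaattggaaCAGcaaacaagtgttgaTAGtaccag

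The other 7 introns were 70 (IWR1), 81 (KIN28), 84 (HPC2), 86 (ARP9), 90 (TFC3), 101 (SRB2) and 105 nt (TAF14) long, where the median of the 265 annotated introns of the tables was 147 nt. GTATGT opened 6 of the 8 introns and 71.3% of all 265. ARP9 has GTACGT and GCR1 has GTATGA. An exact TACTAAC was found in 5 of the 8 (KIN28, TFC3, TAF14, ARP9 and GCR1) and in 82.3% of all introns (searched on the strand of the gene only). The closest heptamer was GACTAAC in IWR1, TGCTAAC in SRB2 and GATTAAC in HPC2. TFC3 alone of the 8 ends in AAG, as do 4.91% of all introns, and the A of its TACTAAC lies 13 nt from that AAG. Among the 218 introns with an exact TACTAAC, 9 had a distance of 13 nt or less, and the median was 35 nt.

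The coding part of exon 1 is short in all 8 genes, whose introns all interrupt the coding sequence, from 8 nt in GCR1 to 82 nt in IWR1. No read was counted in exon 1 of any of them. Reads inside the intron were counted for GCR1 only, and reads over the 5′ exon-intron boundary for IWR1, GCR1 and 5 libraries of TFC3. The pre-mRNA reads of the other genes came from the 3′ intron-exon boundary, so their pre-mRNA shares can be compared between strains but not between genes. A deposited library held 7682741 to 11033195 reads over the table genes and 4127729 to 6863818 uniquely mapped split reads. The 2 slow libraries held 332 and 293 mitochondrial split reads, the other 4 from 33769 to 62482. The part of this difference in the results below was not tested. UPF1 and RPB1 are not in the tables, so the strains' genotypes were not checked in these data.

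The steady-state level of the 8 genes, taken as exon 2 reads per kb of exon 2 per 1000000 table reads, spanned 75.9 to 651 in WT. TAF14 was the most abundant (651 ± 28.1, mean ± SD, n = 2 here and for every mean below), followed by SRB2 (477 ± 65.1), IWR1 (443 ± 7.60), GCR1 (320 ± 49.6), KIN28 (266 ± 8.72), ARP9 (263 ± 39.3), TFC3 (153 ± 22.1) and HPC2 (75.9 ± 0.733). SRB2 and IWR1 overlapped in their WT libraries, as did KIN28 and ARP9. The other neighbours in this order did not overlap. On this scale both slow libraries lay above both WT libraries for all 8 genes, as they did for 64.1% of the 312 table genes, while 16.7% lay below. The ratio of the slow to the WT mean ran from 1.19 (KIN28) to 1.83 (TFC3), with 1.75 for GCR1, 1.64 for HPC2 and 1.60 for ARP9. In the fast strain GCR1 (ratio 0.776), KIN28 (0.809) and IWR1 (0.868) lay below both WT libraries, HPC2 (1.14) lay above both, and the other 4 overlapped with WT. Over all table genes 20.2% lay below both WT libraries in fast and 39.1% above. This scale depends on all other genes of the tables, of which many changed: by the test of all reads given further on, 59.9% of the 312 genes were called in slow and 22.4% in fast.

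**Figure D1:**
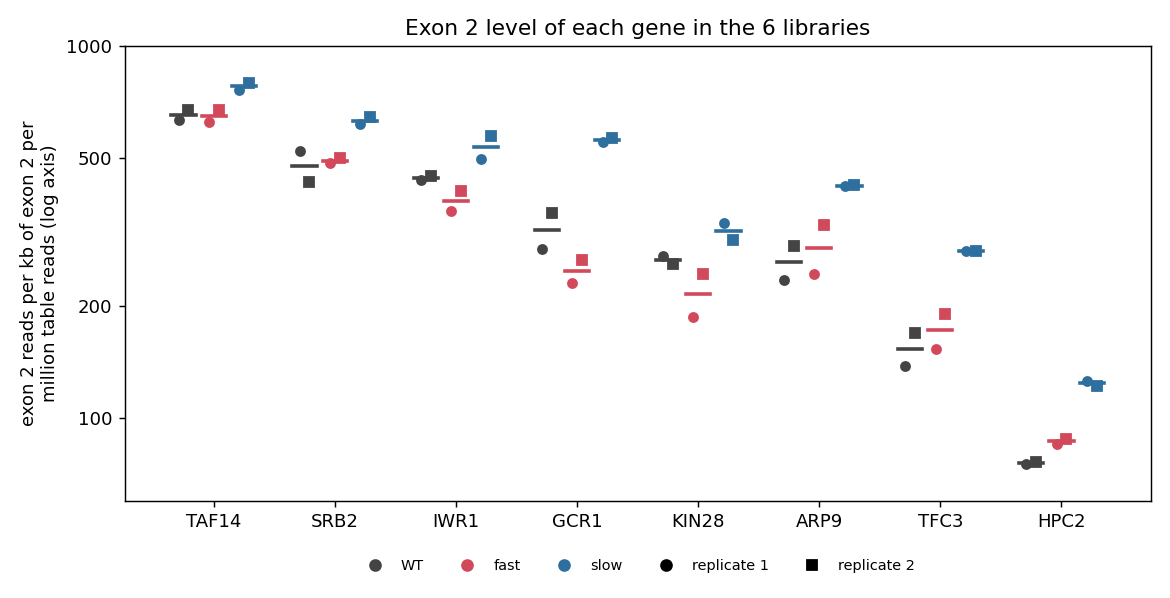
Exon 2 reads per kb of exon 2 per 1000000 table reads (log axis) for each gene, in WT (black), fast (red) and slow (blue), circles for replicate 1 and squares for replicate 2, with a bar at the mean of 2. Genes are ordered by their WT mean, from 651 in TAF14 to 75.9 in HPC2, and the blue symbols of every gene lie above its black ones.

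The pre-mRNA share of a gene is the percentage of pre-mRNA reads (exon-intron boundaries and intron) among its pre-mRNA and exon-exon junction reads. Reads that span exon 1, the intron and exon 2 are not counted in it. In IWR1 they numbered 555 to 1155 in a library, beside 170 to 582 pre-mRNA reads. In TFC3 they numbered 0 to 148 beside 33 to 98, and in HPC2 5 to 78 beside 22 to 64. The shares and the positions of the strains below hold without these reads only. All 7 genes with junction reads had a lower mean share in fast than in WT. In 6 of them both fast libraries lay below both WT libraries. Of the 249 genes that were tested for the ratio and had a share in every library, 26.5% lay below WT in this way in fast and 32.1% above. In slow 1 gene lay above both WT libraries (TAF14, beside 13.3% of all genes), 2 lay below (TFC3 and HPC2, beside 36.1%) and 4 overlapped. A single library's share had a 95% exact (Clopper-Pearson) interval 3.14 to 15.4 points wide, which covers counting error only.

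Among the RNAPII factors, IWR1 had a share of 77.1 and 59.6% in the 2 WT libraries, 35.3 and 47.2% for the fast mutant and 53.3 and 60.4% for the slow mutant. Fast lay below WT without overlap, and slow overlapped with WT. KIN28 had 72.7 and 66.0% in WT, 58.4 and 57.4% for the fast mutant and 68.2 and 72.7% for the slow mutant. Its slow libraries overlapped with WT, and its fast ones were lower. TAF14 gave a similar series, with 72.3 and 66.4% in WT, 58.4 and 57.7% for the fast mutant and 73.2 and 76.2% for the slow mutant. Its slow libraries both lay above WT. SRB2 had shares of 15.1 and 20.9% in WT, 12.3 and 14.9% for the fast mutant and 18.8 and 19.4% for the slow mutant. Its fast libraries were below both WT libraries.

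TFC3, the RNA polymerase III factor, had a share of 11.6 and 18.2% in WT, 10.6 and 15.1% for the fast mutant and 5.14 and 4.50% for the slow mutant. Slow lay below WT without overlap, and fast overlapped with WT. HPC2 of the HIR complex had 30.9 and 29.9% in WT, 10.7 and 28.3% for the fast mutant and 18.3 and 20.7% for the slow mutant, with both mutants below WT, and the fast replicates differed from each other by more than either did from slow. ARP9 had 14.0 and 10.8% in WT, 7.78 and 8.33% for the fast mutant and 12.3 and 25.1% for the slow mutant. Fast lay below WT, and of the slow libraries 1 lay between the WT libraries and the other above them. GCR1 has no value, since none of the 6 libraries had a read over its annotated junction.

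The shares depend on which reads count as mRNA. With the unique split reads of the annotated junction in place of the junction class, a choice made after seeing the data, TAF14 had 38.5 and 35.0% in WT, 30.5 and 29.6% for the fast mutant and 49.1 and 43.7% for the slow mutant. Its strains kept their order at a lower level. HPC2 then had 14.9 and 22.5% in WT and 5.70 and 15.6% for the fast mutant, which overlapped. TFC3 had 13.4 and 20.7% in WT and 9.16 and 13.1% for the fast mutant, so that fast lay below WT. The slow libraries of IWR1, at 53.1 and 60.6%, lay below its WT libraries, at 74.2 and 65.1%. Split reads of unannotated 3′SSs are not counted as mRNA here, so these shares also move with the use of such sites. In WT the site of IWR1 19 nt downstream had 128 and 137 reads, beside 145 and 193 annotated ones. That of TFC3 17 nt downstream had 151 and 190, beside 350 and 315. Fast was again below WT in 6 of 7 genes, now with HPC2 as the exception, beside 46.1% of the 241 genes with such a share, and slow in 3 of 7, beside 29.9%.

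**Figure D2:**
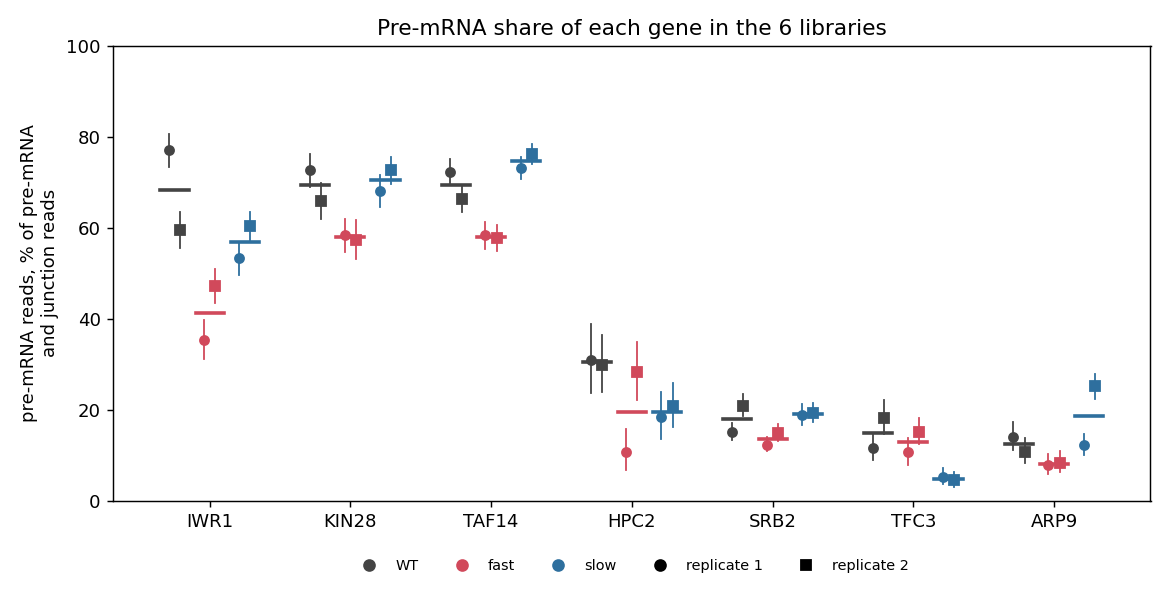
Pre-mRNA share of 7 genes in percent of pre-mRNA and junction reads (GCR1 has no junction reads), by library, in WT (black), fast (red) and slow (blue), circles for replicate 1 and squares for replicate 2. Vertical lines are 95% exact intervals of 1 library and horizontal bars the mean of 2. The red symbols lie below the black ones in 6 genes and overlap with them in TFC3.

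Whether this balance of pre-mRNA and junction reads, given as their ratio, changed was tested by edgeR's quasi-likelihood method. The test took all genes with a minimum of 10 reads of each kind, summed over all libraries. None of the 7 genes passed at an adjusted p of 0.05 in fast against WT, where 9.2% of the 250 genes tested did (23 genes). The log2 change was negative for all 7, with a median of -0.71 beside a median of 0.03 over all 250 genes, of which 48.0% were negative. IWR1 had the lowest value (log2 -1.66, SE 0.556, edgeR adjusted p = 0.111). The others were HPC2 with -0.96, KIN28 with -0.72, TAF14 with -0.71, ARP9 with -0.68, SRB2 with -0.47 and TFC3 with -0.23. At an unadjusted p of 0.05, 1 of the 7 passed (IWR1). IWR1 also passed with TMM scaling of the columns (log2 -1.65, edgeR adjusted p = 0.0393), and no gene of the 7 passed with DESeq2. Over the 6 fits that left out 1 library each, the log2 change of HPC2 ran from -1.85 to -0.15 and that of TFC3 from -0.60 to 0.15.

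In slow against WT, where 0.4% of the 250 genes were called (1 gene), none of the 7 was. TFC3 was lowest (log2 -1.76, SE 0.527, edgeR adjusted p = 0.189), a 0.294-fold ratio. IWR1 had -0.75, HPC2 -0.85, KIN28 0.08, SRB2 0.12, TAF14 0.38 and ARP9 0.64. Their median was 0.08, against -0.18 over all genes tested. In the direct comparison of fast with slow 11.6% of all genes were called and again none of the 7. TFC3 had a log2 difference of 1.53 (SE 0.526, edgeR adjusted p = 0.0984). It was 0.12 (edgeR adjusted p = 0.935) once the reads that span exon 1, the intron and exon 2 were added to the pre-mRNA, an alternative chosen after seeing the data, under which TFC3 had -1.48 in fast against WT. The other 6 genes were all lower in fast than in slow, none past the threshold: ARP9 with -1.32 (SE 0.546, edgeR adjusted p = 0.166), TAF14 with -1.10 (SE 0.359, edgeR adjusted p = 0.0876), IWR1 with -0.91, KIN28 with -0.80, SRB2 with -0.59 and HPC2 with -0.11. With the reads that span the intron added to the pre-mRNA, IWR1 had -0.30 (edgeR adjusted p = 0.736). Without them the median of the 7 was -0.80, against 0.21 over all genes, of which 36.4% were negative. TAF14 passed here with DESeq2 (adjusted p = 0.0257) and with TMM scaling (log2 -1.52, edgeR adjusted p = 0.00952). The calls over all genes depended on this scaling: in fast against slow 27 of 29 calls were higher without it and 12 of 39 with it, and in slow against WT the single call was lower without it and 23 of 24 calls were higher with it.

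Both sides of the ratio were then tested as levels, with the libraries scaled by TMM, a normalization to the bulk of the genes. Junction reads of IWR1 rose in both mutants. In TMM-scaled counts per 1000000 reads (CPM) they were at 58.8 and 124 in WT, 154 and 185 for the fast mutant and 184 and 153 for the slow mutant. Both mutants thus lay above both WT libraries, which themselves differed more from each other than the replicates of either mutant. The log2 change was 0.89 in fast (SE 0.304, edgeR adjusted p = 0.0161) and 0.88 in slow (SE 0.303, edgeR adjusted p = 0.0118). Without WT replicate 1 the change was 0.44 in fast (edgeR adjusted p = 0.471) and 0.43 in slow (edgeR adjusted p = 0.378). The fast call was also lost without fast replicate 2 (0.77) or slow replicate 2 (0.91) and with all unique split reads as the scale (0.62), and the slow call without slow replicate 1 (0.82) or slow replicate 2 (1.09).

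IWR1 was the only one of 7 genes called for junction reads in fast, where 24.5% of 265 genes were called. In slow 42.6% were called, among them IWR1 and TFC3. TFC3 junction reads were 194 and 188 in WT, 192 and 274 for the fast mutant and 329 and 282 for the slow mutant, a log2 change of 0.67 in slow (SE 0.2504, edgeR adjusted p = 0.0198). It stayed between 0.64 and 0.87 when any 1 library was left out, and it did not pass without WT replicate 1, WT replicate 2, slow replicate 1 or slow replicate 2 (edgeR adjusted p = 0.129, 0.137, 0.137 and 0.0609). ARP9 was close to the threshold (219 and 248 in WT, 376 and 296 in slow, log2 0.53, edgeR adjusted p = 0.0600) and passed with DESeq2 (adjusted p = 0.0490). The junction changes in fast were 0.57 for KIN28, 0.54 for TAF14, 0.39 for HPC2, 0.31 for SRB2, 0.29 for TFC3 and 0.21 for ARP9, a median over the 7 genes of 0.39 against 0.01 for all genes. With all unique split reads as the scale that of ARP9 was -0.06. In slow KIN28 had 0.31, HPC2 0.58, TAF14 0.08 and SRB2 -0.13, which became 0.23 for SRB2 on the split read scale.

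Pre-mRNA reads of 4 genes rose in slow, where 22.8% of 259 genes were called: GCR1, TAF14, KIN28 and ARP9. GCR1 had 6666 and 7751 CPM in WT, 5373 and 5634 for the fast mutant and 11738 and 11347 for the slow mutant. The 3 strains did not overlap. Its log2 change was 0.68 in slow (SE 0.105, edgeR adjusted p = 0.000103) and -0.39 in fast (SE 0.105, edgeR adjusted p = 0.0118), and it was the single gene of the 8 called in fast, where 17.4% of all genes were. The call in fast was lost without WT replicate 2 (-0.30, edgeR adjusted p = 0.165), and the call in slow held with each library left out. TAF14 pre-mRNA reads were 1328 and 1385 in WT, 1205 and 1218 for the fast mutant and 2544 and 1978 for the slow mutant (log2 0.74 in slow, SE 0.163, edgeR adjusted p = 0.00361). That call was lost without WT replicate 2 (0.75, edgeR adjusted p = 0.0548) or slow replicate 1 (0.55, edgeR adjusted p = 0.0754).

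KIN28 pre-mRNA reads were 826 and 721 in WT, 828 and 576 for the fast mutant and 1259 and 1157 for the slow mutant (log2 0.64 in slow, SE 0.225, edgeR adjusted p = 0.0460). ARP9 had 138 and 116 in WT, 93.3 and 88.3 for the fast mutant and 260 and 433 for the slow mutant (log2 1.45 in slow, SE 0.492, edgeR adjusted p = 0.0394). Neither passed once WT replicate 1, WT replicate 2, slow replicate 1 or slow replicate 2 was left out, with log2 changes of 0.54 to 0.75 for KIN28 and 1.03 to 1.78 for ARP9. KIN28 did not pass with DESeq2 either (adjusted p = 0.0749). IWR1 pre-mRNA reads were 767 and 707 in WT, 337 and 613 for the fast mutant and 1030 and 1021 for the slow mutant. Its log2 change was -0.63 in fast (edgeR adjusted p = 0.132) and 0.48 in slow (edgeR adjusted p = 0.237), so that junction reads passed the test in both mutants and pre-mRNA reads in neither. IWR1 passed in fast without fast replicate 2 (log2 -1.13, edgeR adjusted p = 0.00552) and with split reads as the scale (log2 -0.87, edgeR adjusted p = 0.0292). TFC3 had 99.3 and 161 CPM in WT and 87.6 and 57.9 in slow (log2 -0.85, SE 0.629, edgeR adjusted p = 0.375). SRB2 had log2 changes of -0.16 in fast and 0.28 in slow, neither called. HPC2 had -0.48 in fast and -0.0024 in slow, the latter turning to 0.08 with split reads as the scale, and TFC3 had 0.06 in fast, turning to -0.18.

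For all reads of a gene 59.9% of 312 genes were called in slow, and 4 of the 8 genes among them, each higher: TFC3, GCR1, ARP9 and HPC2. TFC3 had 562 and 658 CPM in WT and 952 and 945 in slow (log2 0.64, SE 0.120, edgeR adjusted p = 0.00253). GCR1 had 1083 and 1294 in WT, 843 and 940 for the fast mutant and 1718 and 1775 for the slow mutant (log2 0.56 in slow, SE 0.0991, edgeR adjusted p = 0.00194). Both calls held with each library left out. HPC2 had 170 and 174 in WT and 241 and 238 in slow (log2 0.48, SE 0.110, edgeR adjusted p = 0.00634) and did not pass without WT replicate 1 (0.42, edgeR adjusted p = 0.0531). ARP9 had 405 and 479 in WT and 624 and 620 in slow (log2 0.49, SE 0.133, edgeR adjusted p = 0.0127). It did not pass without WT replicate 1 (0.34), slow replicate 1 (0.49) or slow replicate 2 (0.50). IWR1, KIN28, SRB2 and TAF14, the RNAPII factors, had changes of 0.07 to 0.12 in slow, none called. The median was 0.30 for the 8 genes and 0.13 for all genes.

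In fast 22.4% of the 312 genes were called for all reads. GCR1 was the single call among the 8, and it fell (log2 -0.42, SE 0.0991, edgeR adjusted p = 0.0176). That call was lost without WT replicate 2 (-0.28, edgeR adjusted p = 0.0828) or fast replicate 1 (-0.34, edgeR adjusted p = 0.0949). KIN28 (-0.25, edgeR adjusted p = 0.142) and IWR1 (-0.23, edgeR adjusted p = 0.189) followed, and the other 5 lay between -0.02 and 0.15, of which ARP9 and SRB2 turned to -0.03 and -0.08 with split reads as the scale. The scale sets part of these levels. With all unique split reads as the scale in place of TMM the median of all genes moved from 0.13 to 0.42 for all reads in slow, from 0.05 to 0.40 for junction reads in slow and from 0.01 to -0.25 for junction reads in fast. Of the calls for all reads, 103 of 187 were higher with TMM in slow and 182 of 196 with split reads, and in fast 28 of 70 and 18 of 94. For junction reads these were 38 of 113 and 113 of 118 in slow, and 27 of 65 and 6 of 98 in fast. For pre-mRNA reads they were 24 of 59 and 23 of 30 in slow, and 27 of 45 and 11 of 58 in fast.

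**Figure D3:**
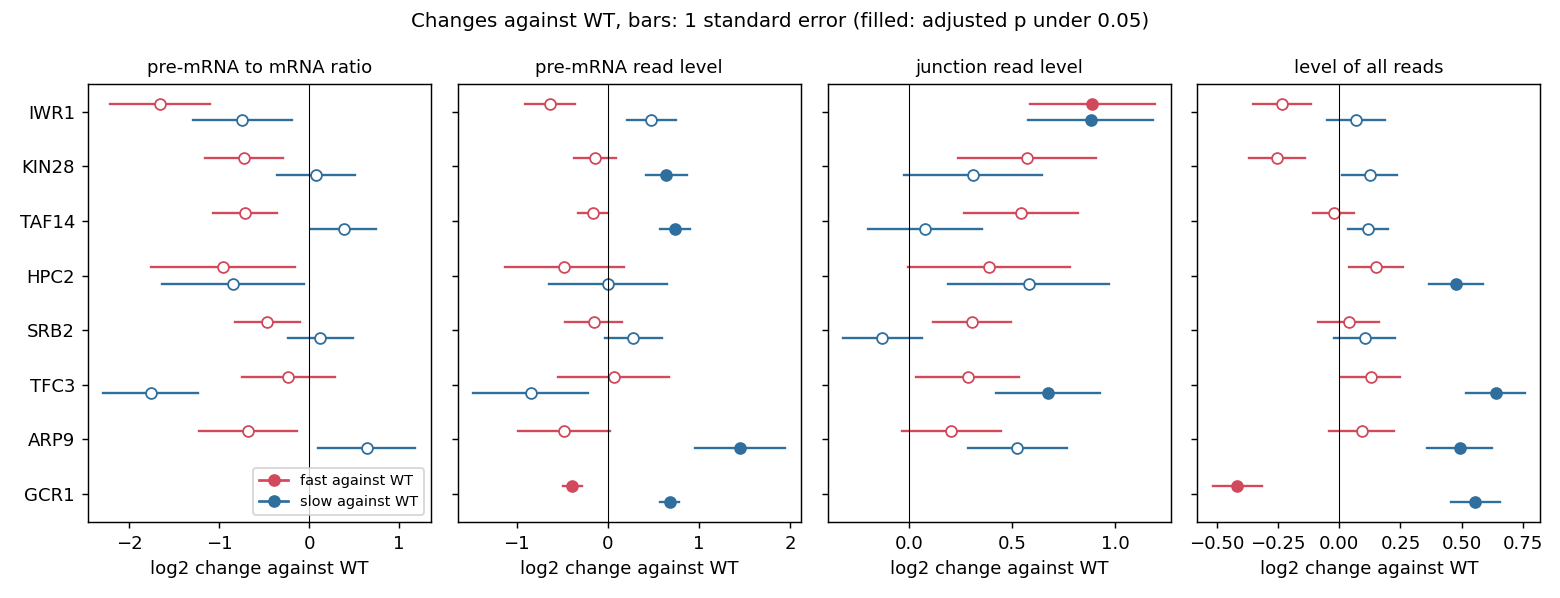
Log2 change against WT in fast (red) and slow (blue) for the pre-mRNA to mRNA ratio and for the levels of pre-mRNA reads, junction reads and all reads. Lines show 1 standard error, and filled symbols have an edgeR adjusted p under 0.05. No ratio is filled. GCR1 has filled symbols on opposite sides of 0 for pre-mRNA reads (-0.39 and 0.68) and all reads (-0.42 and 0.56).

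Splicing fidelity was measured as the splicing error frequency (SEF), the unique split reads of an unannotated junction per 100 reads of the annotated junction with which it shares 1 end. Across the 8 genes 22 unannotated junctions with a unique read shared 1 end with an annotated intron and had the other within 1000 nt, and 12 of them passed the minimum of 5 reads in both libraries of 1 strain or more. The remaining 10 had 120 reads in all and at most 20 in any 1 library. SRB2 and KIN28 had no such junction, beside 7603 and 1957 reads of their annotated junctions. Of the 12, 10 used another 3′SS downstream of the annotated one, in IWR1 (3), HPC2 (3), TAF14 (2), TFC3 (1) and ARP9 (1), and the other 2 were in GCR1. Those 10 had an SEF. Of these, 4 reached the minimum in every strain (IWR1 at 19 nt, TFC3 at 17 nt, TAF14 at 4 nt and HPC2 at 72 nt downstream). HPC2 at 38 nt and at 106 nt reached it in WT alone and IWR1 at 26 nt in fast alone, so the minimum itself favoured a lower SEF in the mutants for the former and a higher one in fast for the latter, and these differences are given as descriptions. TAF14 at 11 nt also reached it in fast alone, ARP9 at 14 nt in WT and fast, and IWR1 at 32 nt in fast and slow. The minimum thus favoured a lower SEF in slow for ARP9 and a higher one in both mutants for IWR1 at 32 nt. For TAF14 at 11 nt it favoured a higher SEF in fast.

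In WT the most frequent was the 3′SS of IWR1 19 nt downstream of the annotated CAG, an AAG 43 nt from the BP adenosine. Its reads numbered 128 and 137 in WT beside 145 and 193 annotated reads, an SEF of 88.3 and 71.0%. Pooled over both WT libraries this was 78.4%, rank 2 of 280 events with a WT value, whose median was 0.0949%. The study had already named IWR1 as a gene with a frequent unannotated event in WT. In fast the SEF was 54.1 and 114%, on both sides of WT, and in slow 49.9 and 51.6%, below WT in both. The 3′SS of TFC3 17 nt downstream had rank 3, with a pooled SEF of 51.3% in WT. It is a CAG, 30 nt from the BP adenosine, beyond the annotated AAG. Its SEF was 43.1 and 60.3% in WT, 42.1 and 18.9% for the fast mutant and 59.3 and 41.4% for the slow mutant, so fast was lower than both WT libraries and slow overlapped with WT.

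The study's criterion for a changed SEF was Fisher's exact test (two-sided) on reads pooled over the 2 libraries of a strain, at p under 0.01 and a false discovery rate (FDR) under 0.03. It uses no spread between replicates, and its counts include the junctions that the minimum favoured. By it 53% of 283 events were called in fast, and 3 of the 10 events here. In slow 49.8% were called, and 6 of the 10. With edgeR, which uses that spread, the called share was 0% in both comparisons, of these 10 and of all 283 events. At an unadjusted p of 0.05 edgeR gave 45 events in fast and 33 in slow, 1 of the 10 in each (HPC2, 38 nt downstream). That site reached the minimum in WT alone, so this is not taken as support. The 3 events called by Fisher's test in fast were TFC3 at 17 nt, which fell from a pooled 51.3 to 28.5% (FDR = 1.6e-09, edgeR adjusted p = 0.646), IWR1 at 26 nt and HPC2 at 38 nt. The calls of IWR1 and HPC2 are not taken as support, since each site reached the minimum only in the strain where it was highest. Without fast replicate 2 the FDR of TFC3 was 0.114.

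IWR1 at 26 nt (an AAG) had 0 reads in both WT libraries, 9 and 26 for the fast mutant and 0 and 23 for the slow mutant. With 338 annotated reads in WT, a count of 0 allows an SEF of up to 0.888% by counting error alone. Against this limit the pooled SEF gave bounds of 6.03-fold in fast (5.35%) and 3.54-fold in slow (3.15%, Fisher FDR = 0.000977). The site reached the minimum in fast alone, which favoured a higher value there, so its Fisher call in fast is not taken as support. With edgeR the adjusted p was 0.451 in fast and 0.655 in slow. Without WT replicate 2 these bounds were 2.59-fold and 1.52-fold. All slow reads of this site came from slow replicate 2, and the slow call was also lost without WT replicate 2 (FDR = 0.0618). HPC2 at 38 nt (a CAG) had 5 and 17 reads in WT and 0 in the other 4 libraries. Against the limits of 0.443% in fast and 0.455% in slow, its pooled WT SEF of 4.56% gave bounds of 10.3-fold and 10.04-fold. This site reached the minimum in WT alone, which favoured a lower value in the mutants, so its Fisher calls are not taken as support. The edgeR adjusted p was 0.272 in fast and 0.369 in slow. WT replicate 2 gave 17 of the 22 reads, and without it these bounds were 4.31-fold and 4.20-fold.

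The other 4 calls in slow were IWR1 at 19 nt, ARP9 at 14 nt, HPC2 at 106 nt and TAF14 at 11 nt. IWR1 at 19 nt fell to a pooled 50.8% (FDR = 0.00013, edgeR adjusted p = 0.755). ARP9 at 14 nt fell from 1.83 to 0.447% (FDR = 1.07e-05, edgeR adjusted p = 0.542), with 0 and 14 reads in the 2 slow libraries. It reached the minimum in WT and fast but not in slow, which favoured a fall, so its Fisher call is not taken as support. HPC2 at 106 nt had 3.53% in WT and 0.909% in slow (edgeR adjusted p = 0.656). It reached the minimum in WT alone, which favoured a fall, so its Fisher call is not taken as support. TAF14 at 11 nt rose from 0.284 to 1.25% (FDR = 0.000378, edgeR adjusted p = 0.755), and 29 of its 31 slow reads were in slow replicate 1. Without WT replicate 1 the calls of IWR1 and TAF14 were lost. The call of HPC2 was lost without WT replicate 1, slow replicate 1 or slow replicate 2. With multiply mapped reads added, ARP9 did not pass (FDR = 0.0206). The 3 events called in neither mutant were HPC2 at 72 nt (pooled 12.4, 10.04 and 11.97% in the order WT, fast, slow), IWR1 at 32 nt (4.73, 3.98 and 3.42%) and TAF14 at 4 nt (2.23, 1.72 and 1.29%).

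**Figure D4:**
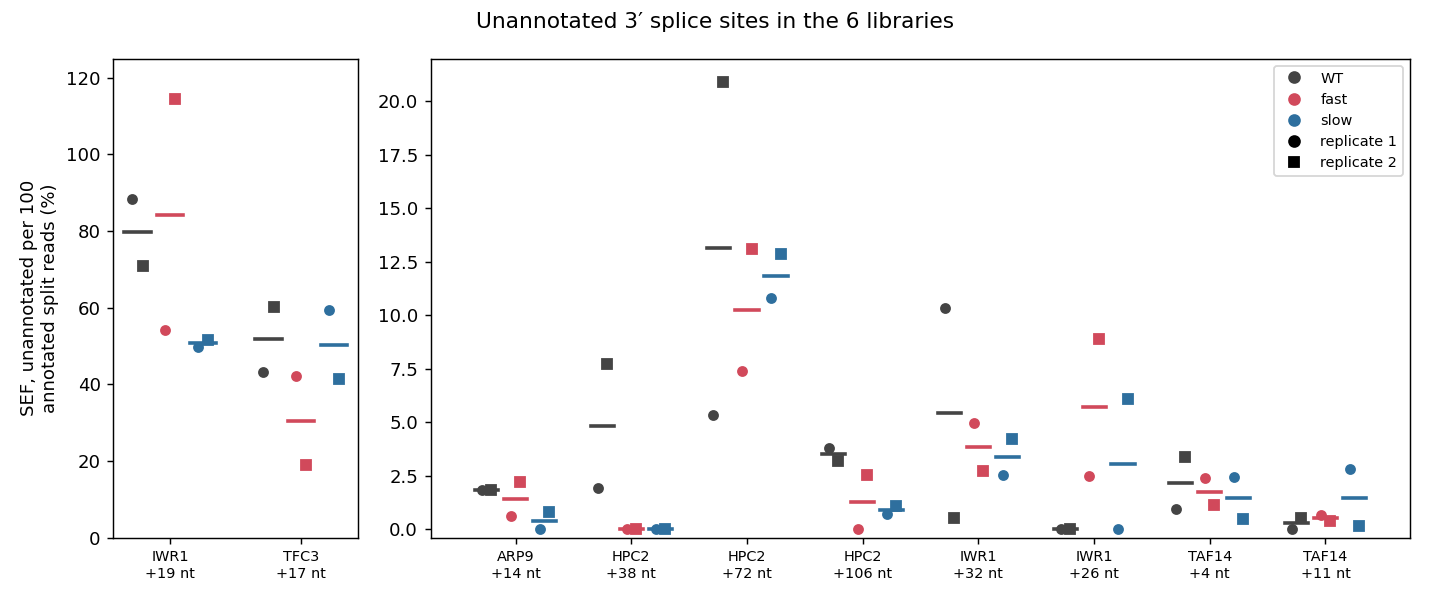
SEF in percent (unannotated per 100 annotated split reads) of the 10 unannotated 3′SSs of 5 genes, named by gene and distance downstream of the annotated 3′SS, by library, in WT (black), fast (red) and slow (blue), with circles for replicate 1, squares for replicate 2 and bars at the mean. IWR1 at 19 nt and TFC3 at 17 nt are on a scale of their own. The replicates of IWR1 at 19 nt in fast stand at 54.1 and 114%.

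The unannotated 3′SSs differ in what they do to the reading frame. In HPC2 the site 72 nt downstream keeps the frame and leaves 601 of the 625 codons. The other 9 shift it. In IWR1 all 3 sites meet a stop after 27 codons, in place of 353, and in TFC3 the site 17 nt downstream meets one after 29 of 1160. The shifted frames stop after 3 (4 nt) and 36 codons (11 nt) in TAF14, 17 (38 nt) and 36 codons (106 nt) in HPC2 and 21 codons in ARP9. Unspliced RNA would stop after 13 (ARP9) to 50 codons (SRB2), whether or not the intron length is a multiple of 3, as it is in KIN28, TFC3, TAF14 and HPC2. These are readings of the annotated sequence, and no protein was measured.

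GCR1 was spliced, but not at its annotated intron (chrXVI:412262-413012). Its annotated junction had 0 reads in all 6 libraries. Of 1812 split reads in the intron, 1775 ended at 412995, a CAG 17 nt upstream of the annotated TAG and 34 nt from the A of the TACTAAC heptamer, where the TAG is 51 nt away. They began at 4 different 5′ ends: 412257, which is 5 nt upstream of the annotated 5′SS (615 reads), the annotated 412262 (410), 412313 (537) and 412889 (213). The first 2 lie in the tandem repeat shown above, directly after the start codon. Counted from the annotated start codon, the junction 412257-412995 keeps the frame and gives 789 codons where the annotated one has 785. The junctions from 412262, 412313 and 412889 to 412995 stop after 31, 48 and 34 codons.

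Reads to 412995 numbered 289 and 176 in WT, 406 and 349 for the fast mutant and 273 and 282 for the slow mutant, or, per 1000000 unique split reads, 47.7 and 33.0, 59.2 and 52.3, and 66.1 and 51.1 in the same order. Both mutants thus lay above both WT libraries on this scale. Over all genes tested, junction reads on this scale had a median log2 change of 0.40 in slow and -0.25 in fast. Of the edgeR calls there, 113 of 118 were higher in slow and 6 of 98 in fast. The slow rise of the reads to 412995 is therefore not taken as particular to GCR1. With these reads as mRNA, the pre-mRNA share of GCR1 was 92.6 and 95.7% in WT, 87.0 and 89.8% for the fast mutant and 94.3 and 95.8% for the slow mutant, with fast below WT and slow overlapping it. This 3′ end was chosen after its reads were seen, so these values have no test. Most of the pre-mRNA reads lay inside the long intron (2491 of 3625 in WT replicate 1). The counted 3′ boundary is at the annotated TAG, downstream of 412995, so RNA spliced at 412995 can also cross it. The share is thus not the unspliced part of GCR1 RNA, and the same limit holds for its pre-mRNA reads given above. Of the reads to 412995, the frame-keeping 412257 took 29.1 and 26.7% in WT, 25.4 and 49.9% for the fast mutant and 40.3 and 34.4% for the slow mutant. The 5′ end 412889 took 13.1 and 20.5% in WT, 10.6 and 11.7% for the fast mutant and 8.42 and 11.3% for the slow mutant. A library's share had a 95% exact interval 6.23 to 13.9 points wide. The annotated 3′ end had 27 reads, none from the annotated 5′SS, and 25 of them were in the 2 slow libraries (18 and 7), beside 0 and 1 in WT and 1 and 0 in fast.

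**Figure D5:**
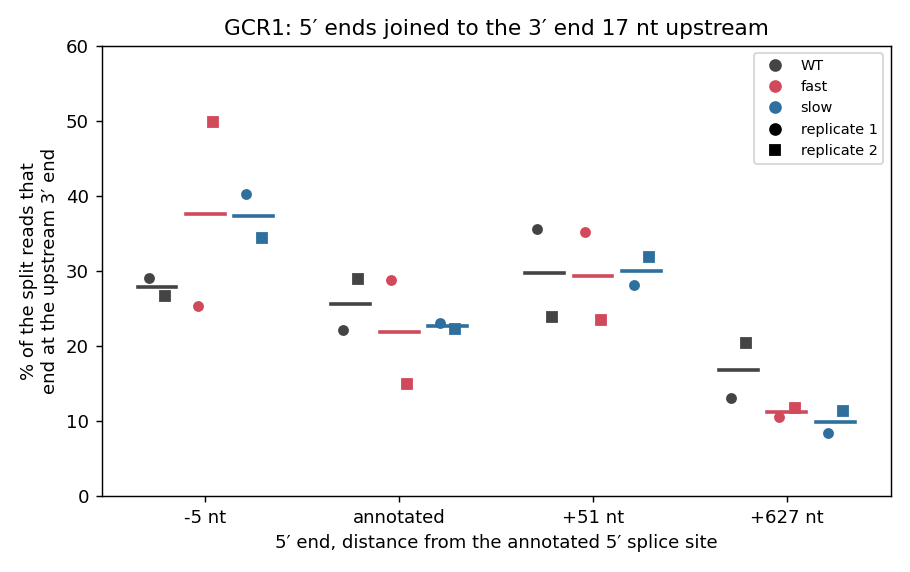
Share of 4 GCR1 5′ ends, in percent of the split reads that end 17 nt upstream of the annotated 3′SS, by distance from the annotated 5′SS, in WT (black), fast (red) and slow (blue), with circles for replicate 1, squares for replicate 2 and bars at the mean. At the 5′ end 5 nt upstream the slow symbols (40.3 and 34.4%) lie above WT, and the fast symbols (25.4 and 49.9%) lie on both sides of it.

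Other intron genes of transcription, chromatin or related processes were taken from a list of 8 (SUS1, VPS75, PHO85, DBP2, GLC7, PCC1, HMRA1 and MATA1), of which 5 were in the tables: PHO85, VPS75, DBP2, PCC1 and GLC7. None of the 5 was called for the ratio against WT in either mutant. Their median was -0.43 in fast and -0.06 in slow, against 0.03 and -0.18 over all genes. GLC7, the catalytic subunit of a protein phosphatase, was called higher in fast than in slow (log2 1.07, SE 0.279, edgeR adjusted p = 0.0484). This call was lost in 5 of the 6 fits without 1 library, all but that without fast replicate 2, and with TMM scaling (0.65, edgeR adjusted p = 0.209). Junction reads of 2 rose in fast, DBP2 (0.60, edgeR adjusted p = 0.00268) and VPS75 (0.52, edgeR adjusted p = 0.0321), DBP2 being an RNA helicase and VPS75 a histone chaperone. Neither passed without WT replicate 2 (0.50 and 0.53) or with all unique split reads as the scale (0.34 and 0.26), and VPS75 did not without WT replicate 1, fast replicate 2 or slow replicate 2 either. In slow 2 rose, PHO85 (1.39, edgeR adjusted p = 4.3e-05) and GLC7 (0.71, edgeR adjusted p = 1.62e-05), and DBP2 fell (-0.63, edgeR adjusted p = 0.0011). The fall of DBP2 did not pass on the split read scale (-0.28, edgeR adjusted p = 0.167), without WT replicate 1 (-0.53) or without slow replicate 1 (-0.46). PHO85, which encodes a cyclin-dependent kinase, did not pass without WT replicate 1 (1.20) or slow replicate 1 (1.01), and the GLC7 call held with each library left out. None was called for pre-mRNA reads.

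By the smallest root mean square difference of log2 junction CPM, centred over the 6 libraries, the gene most like each of the 7 was another gene outside them. It was YRA1 for KIN28 (0.148) and for TAF14 (0.132), YSC84 for IWR1 (0.264), RPS30A for SRB2 (0.113), UBC12 for TFC3 (0.105), NYV1 for HPC2 (0.127) and DID4 for ARP9 (0.0673). The median difference from the other 264 genes was 0.361 to 0.643. IWR1 was thus the least matched of the 7. Across replicates of 1 strain, the log2 pre-mRNA to junction ratio of the 7 genes differed by a median of 0.45 between WT, 0.32 between fast and 0.23 between slow libraries, beside 0.31 for all 250 genes in each strain.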

How the data were processed

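The authors aligned the reads with STAR (version not given in the sources used here) to genome build sacCer3 (R64) and deposited read counts per gene and read class, made with DICEseq for annotated intron genes, and split read counts per junction. FPKM columns of the deposited tables were not used. No replicates were pooled in the files, and no values were normalized before testing. Ratios of pre-mRNA (boundary and intron) to junction reads and levels were tested in edgeR 4.0.16 (limma 3.58.1, R 4.3.3) with a quasi-likelihood fit to all 6 libraries and Benjamini-Hochberg adjustment over all genes tested, at 0.05. Ratios needed a minimum of 10 reads of each kind summed over all libraries, edgeR's filter on low counts was used for levels, and columns of the ratio were not scaled. Unannotated junctions had 1 annotated end and the other within 1000 nt. Their reads were compared over pooled libraries with Fisher's exact test (two-sided), as in the study, and with edgeR. Alternatives included DESeq2 1.42.0, other scales, filters and read classes, a replicate block, and leaving out each library. The tests were tested on simulated data. Every one of the 8 genes and each of their junctions past the read minimum is named. Genes and lists were chosen with earlier results of these data known. With 2 libraries a strain, edgeR p-values rest on a spread estimated over all 6 libraries with information from other genes. Fisher's p-values use no spread between libraries. Left-out fits assume that a lone library varies like the others. Sequences are from RefSeq R64, and intervals cover counting error only.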

Additional observations from a re-analysis of the deposited data

How the results depend on the processing

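Most single-gene and single-junction values kept their direction and side of the threshold (850 values under all alternatives together), while 64 reversed, 55 lost and 25 gained a call. Part of the 850 could not move, so their number does not measure stability. The log2 change beside Fisher's test in 1 mutant is the same by construction without a library of the other mutant. It is also the same with a narrower window or a minimum of 10 reads. Beyond single libraries, the test and the scale moved the counts of calls among the 8 genes. Unannotated junctions called by Fisher's test numbered 0, not 3, in fast and 0, not 6, in slow with edgeR across libraries, with or without a replicate block. They numbered 1 and 2 with a minimum of 10 reads, which left 5 of the 10 events to test. With all unique split reads as the scale, calls went from 1 to 0 for junction reads in fast, from 1 to 2 for pre-mRNA reads in fast and from 4 to 7 for all reads in slow. For the ratio, TMM scaling gave 1 call in place of 0 in fast and 1 in fast against slow, where DESeq2 also gave 1. The cause was not tested.

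On the split read scale the values that reversed were -0.061 for ARP9 and 0.23 for SRB2 junction reads in fast and slow, -0.030 for ARP9 and -0.081 for SRB2 all reads in fast, -0.18 for TFC3 pre-mRNA reads in fast and 0.082 for HPC2 pre-mRNA reads in slow. HPC2 pre-mRNA reads in slow had 0.0048 without a filter. DESeq2 gave -0.033 for IWR1 all reads in slow. The ratio in slow was -0.070 for KIN28 with split reads as mRNA and -0.057 for SRB2 with the whole-intron class added, both chosen after seeing the data. With edgeR across libraries the SEF change was -0.0075 for IWR1 at 19 nt and 0.049 for IWR1 at 32 nt in fast and 0.12 for HPC2 at 72 nt in slow.

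The shared replicate numbers are treated as names, since there are only 2 of them and no label ties them to a day or batch. The deviations of same-numbered libraries correlated at 0.49, 0.31 and 0.27 for all reads and from -0.36 to 0.14 for the other measures. With a replicate block, all reads had 2 calls among the 8 genes in fast in place of 1, IWR1 being added (-0.24, edgeR adjusted p = 0.0259), and over all genes 135 in place of 70, the ratio in fast 31 in place of 23 and in slow 0 in place of 1. Under the block HPC2 pre-mRNA reads in slow had 0.046, IWR1 at 19 nt in fast -0.0075, IWR1 at 32 nt 0.15 in fast and 0.018 in slow, and HPC2 at 72 nt in slow 0.13. With crossed numbers, added after seeing the data, the ratio had 9, 0 and 15 calls over all genes (fast, slow, fast against slow), junction reads 58 and 104 and pre-mRNA reads 44 and 57, with 0.050 for HPC2 pre-mRNA reads in slow.

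Over all genes, the ratio in fast had 41 calls with DESeq2 and 37 with TMM in place of 23, in slow 9 and 24 in place of 1, and in fast against slow 48 with DESeq2 and 16 with split reads as mRNA or the whole-intron class added, in place of 29. On the split read scale junction reads in fast had 98 calls in place of 65 and pre-mRNA reads in slow 30 in place of 59.

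Leaving out 1 library at a time, calls among the 8 genes ran from 3 to 8 (fast) and 5 to 9 (slow) for junctions by Fisher's test, 0 to 1 and 0 to 3 for junction reads, 0 to 2 and 1 to 4 for pre-mRNA reads, 0 to 1 and 2 to 4 for all reads, and stayed at 0 for the 3 ratios. Over all genes they ran from 0 to 18 (fast), 0 to 1 (slow) and 2 to 25 (fast against slow) for the ratio, 36 to 60 and 45 to 122 for junction reads and 21 to 44 and 16 to 68 for pre-mRNA reads. For the junctions of the 8 genes, the read minimum then applied to the lone library left of a strain, so the set tested changed. Without WT replicate 1 it held 14 events in place of 10. Events enter this set where they are high, so the junction counts by Fisher's test are not taken as support. Log2 changes whose sign turned in the SEF in fast ranged from -1.46 to 0.27 (ARP9 at 14 nt), -1.06 to 0.87 (HPC2 at 72 nt), -0.53 to 0.54 (IWR1 at 19 nt), -1.40 to 2.38 (IWR1 at 32 nt), -0.13 to 3.60 (TAF14 at 11 nt) and -0.97 to 0.80 (TAF14 at 4 nt). In slow they were -0.81 to 1.12 (HPC2 at 72 nt), -0.063 to 5.39 (IWR1 at 26 nt), -1.61 to 2.17 (IWR1 at 32 nt), -0.83 to 4.87 (TAF14 at 11 nt), -2.13 to 0.40 (TAF14 at 4 nt) and -0.31 to 0.21 (TFC3 at 17 nt). For junction reads in slow they were -0.36 to 0.13 (SRB2) and -0.14 to 0.36 (TAF14), for all reads in fast -0.082 to 0.25 (ARP9), -0.13 to 0.22 (SRB2), -0.067 to 0.015 (TAF14) and -0.025 to 0.27 (TFC3), and in slow -0.046 to 0.17 (IWR1) and -0.061 to 0.26 (SRB2). For pre-mRNA reads they were -0.46 to 0.10 (KIN28) and -0.51 to 0.44 (TFC3) in fast and -0.25 to 0.30 (HPC2) in slow. For the ratio they were -0.60 to 0.15 (TFC3) in fast, -1.01 to 0.70 (HPC2) in fast against slow, and -0.0021 to 1.25 (ARP9), -0.15 to 0.30 (KIN28) and -0.16 to 0.41 (SRB2) in slow. Depth limits HPC2 most, with 22 to 64 pre-mRNA reads in a library.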
